A study of Mus musculus with 6 samples.

Results

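Ribosomal protein genes encode the protein parts of the cytosolic ribosome. They were taken here by symbol, as every gene named Rpl or Rps with a number (and at most a closing a, x or l) together with Rplp0, Rplp1, Rplp2 and Rpsa, wherever the platform annotation gave a probe set that symbol alone. This gave 64 of the 22180 genes with a symbol of their own, 40 of the large subunit and 24 of the small subunit, each read from its brightest probe set. The tested samples were 3 pools of long-term haematopoietic stem cells (LT-HSC) from C57/BL6 mice that expressed NPMc+, the leukaemia-associated form of nucleophosmin that lies in the cytoplasm. They were set against 3 pools of LT-HSC from control mice of the same strain. All cells were sorted from bone marrow 4 months after a bone marrow transplant, and each array read the amplified RNA of a pool, about 5 ng at the start. The sources used here do not state what drives NPMc+ expression, how many mice made a pool, or what the control mice received. The study describes its 3 replicates as biological. Values are log2 signals of a microarray, and a difference is NPMc+ minus control.

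A ribosome is built in the nucleolus, where ribosomal RNA is folded with the large-subunit (Rpl) and small-subunit (Rps) proteins before both subunits leave for the cytoplasm. Nucleophosmin, the product of Npm1, is an abundant nucleolar protein that takes part in this assembly, and the NPMc+ mutation moves it out of the nucleolus. Cells make the ribosomal proteins in matched amounts, largely by controlling the translation of their messages, whose 5′ ends often start with a run of pyrimidines called a 5′ terminal oligopyrimidine (TOP) tract. Haematopoietic stem cells are known for a low rate of protein synthesis, and inherited loss of a single ribosomal protein gene can cause failure of red cell production in humans.

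The TOP tract is the sequence feature by which these messages are regulated together, so it is shown first. RefSeq promoter sequences of the GRCm38.p6 build were found for 49 of the 64 genes, matched by gene identifier. The lines below give 30 bases around an annotated transcript start, 15 before it and 15 from it on, with the longest run of C and T in capitals. Rps6, Rps18, Rpl35 and Rpl14 have the tract at the start, and Rps23, Rpl6, Rps25 and Rps27l are genes whose differences are described below.
Rps6 (chr4:86857353-86857382, minus strand): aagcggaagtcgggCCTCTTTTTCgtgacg
Rps18 (chr17:33955651-33955680, minus strand): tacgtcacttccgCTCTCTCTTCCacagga
Rpl35 (chr2:39005117-39005146, minus strand): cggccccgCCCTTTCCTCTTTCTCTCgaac
Rpl14 (chr9:120571502-120571531, plus strand): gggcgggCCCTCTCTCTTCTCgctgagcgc
Rps23 (chr13:90923107-90923136, plus strand): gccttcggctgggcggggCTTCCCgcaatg
Rpl6 (chr5:121204486-121204515, plus strand): tggtcaCCTCCCgtcattgcttatagaccg
Rps25 (chr9:44407699-44407728, plus strand): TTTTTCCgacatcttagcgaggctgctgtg
Rps27l, first of its 2 annotated starts (chr9:66946071-66946100, plus strand): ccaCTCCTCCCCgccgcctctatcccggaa

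A C at the annotated start followed by at least 4 more pyrimidines was found in 11 of the 49 genes (22.4%), against 813 of 27025 genes in the whole promoter table (3.01%). The share was 7 of 29 for the large subunit and 4 of 20 for the small subunit. A run of 8 or more C or T within 15 bases of the start was found in 22 of 49 (44.9%), against 13.91% of all genes. An annotated start that lies a few bases off the true one can hide a tract, so these are counts of letters and not of TOP messages. Over the 300 bases from 250 before to 50 after the start, and on either strand, CCGGAAG (the core bound by ETS factors) was present in 22 of 49 (44.9%) against 9.93% of all genes. TATAAA was present in 5 of 49 (10.2%) against 15.7%. GGGCGG was present in 25 of 49 (51.0%) against 38.2% of all genes, and AAGATGGC in 2 of 49 (4.08%) against 3.19%; no overlap between motifs was removed. The 10 tested genes with the tract and the 37 without it had median differences between NPMc+ and control of 0.08 and 0.05 log2 units. The arrays read message levels and not translation, so this split does not measure regulation through the tract.

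The deposited arrays form pairs, and this shapes every value below. In each of the 41345 probe sets the NPMc+ and control arrays of the same number have the same average in all 3 pairs, within 6.5e-05 log2 units, so only the difference within a pair varies freely. A gene's groups therefore fail to overlap exactly when its 3 pair differences have 1 sign. The tests used limma with the pair as a block, over all 16635 genes that passed a filter on dim signals. Of the ribosomal protein genes 62 passed, 38 large and 24 small. Rpl10l and Rpl32l, at 2.52 and 2.54 log2 units, lay under the filter, which used the mean of all 6 arrays. Whether a difference comes from fewer cells of a type in a pool or from less RNA per cell cannot be told apart in such bulk samples.

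The signals of the genes fell into a bright and a dim group with nothing between 7.04 (Rpl22) and 8.13 (Rpl9) log2 units. Of the 62 tested, 38 were at 8 or above and 24 below. The brightest were Rps18 at 12.79, Rplp1 at 12.67, Rps12 at 12.64 and Rpl28 at 12.60, close to the highest mean of any gene tested, 12.91. The dimmest tested were Rpl3l at 3.73 and Rpl27a at 3.84. These signals do not rank the messages, because probe sets of a single gene differed as much. Of 24 genes with more than 1 probe set, 13 had probe sets over 4 log2 units apart: Rps18 read 12.79 and 4.17, and Rps28 11.73 and 4.64. In 10 of the 24, another probe set had a mean difference of the opposite sign to that of the probe set used. Some probe sets are copies of each other, with identical values for both of Rpl23a, for 6 of the 8 of Rps12 and for a pair of the 3 of Rps19. Of the 24 dim genes, 9 are also listed in a probe set shared with other symbols, which was not used here; among the 38 bright ones 11 are. Ribosomal protein genes have many near-identical processed pseudogenes, so a bright probe set can read several loci.

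**Figure D1:**
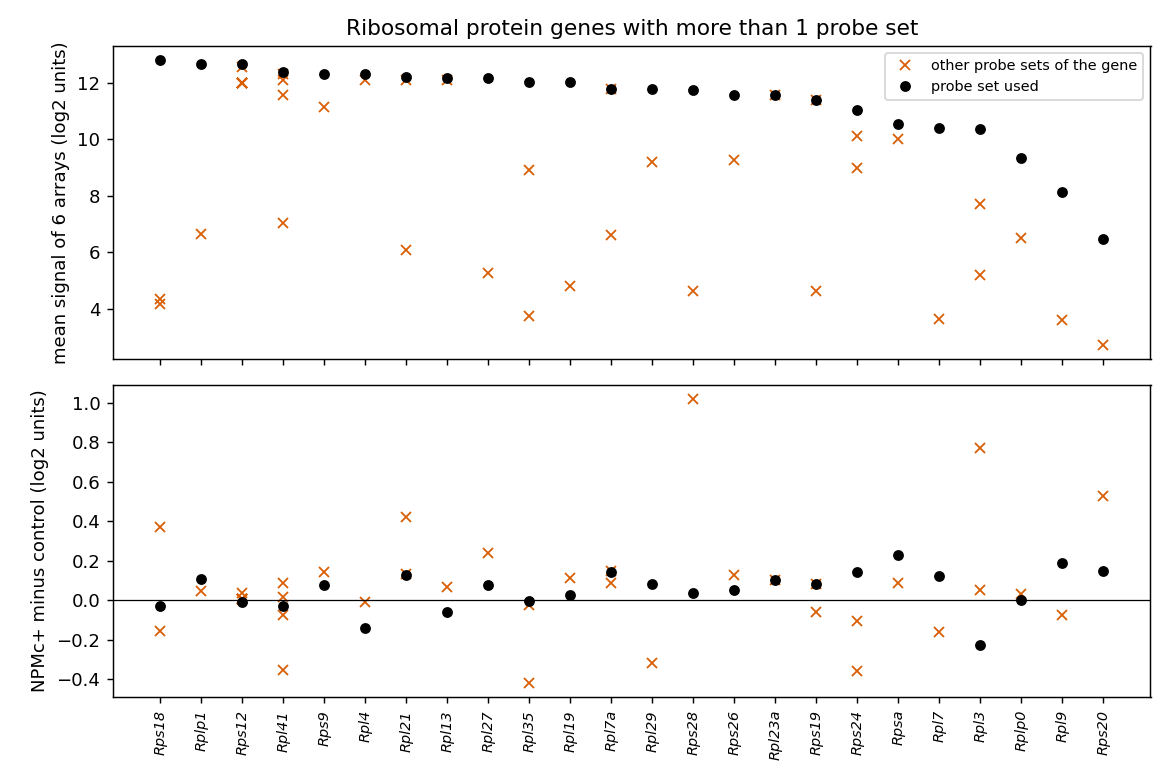
Mean signal over the 6 arrays (upper panel, log2 units) and mean difference NPMc+ minus control (lower panel, log2 units) for the probe sets of the 24 ribosomal protein genes with more than 1; black circles are the probe sets used and orange crosses the others. The signals of a gene spread over up to 8.62 log2 units (Rps18), and the largest difference is that of a dim probe set of Rps28, at 1.02.

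No ribosomal protein gene passed the test for a difference between NPMc+ and control stem cells. With limma, 0 of 62 passed an adjusted p under 0.05, as did 0% of all genes tested. At an unadjusted p under 0.05 there were again 0 of 62, where 8.97% of all genes tested passed, 5.95% higher and 3.02% lower in NPMc+. The smallest unadjusted p was 0.109, for Rps23 (limma adjusted p 0.649). Differences ran only from -0.39 (Rps25) to 0.49 (Rpl37) log2 units. Their median size was 0.11 log2 units, against 0.18 over all genes tested, with a median standard error of 0.19 against 0.20. The limma 95% interval lay within a 2-fold difference either way for 58 of 62 (93.5%), against 83.6% of all genes, and within 1.5-fold for 27 (43.5%), against 29.3%. All 38 bright genes had intervals within 2-fold, and 20 of the 24 dim ones (83.3%) did, near the share of all genes. Within 1.5-fold lay 57.9% of the bright genes and 20.8% of the dim ones. The median signal was 10.46 log2 units for the 62 genes and 5.11 for all genes tested. The shares are therefore not matched for signal. The 4 whose interval reached past 2-fold were Rpl37, Rpl34, Rpl3l and Rps15. Some dim genes lay close to the median signal of an array, which was 3.90 to 3.99 log2 units. Rpl27a was at 3.84, Rps15 at 4.04 and Rpl37 at 4.23. Intervals there describe a probe set of low signal and need not bound a change in the message.

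**Figure D2:**
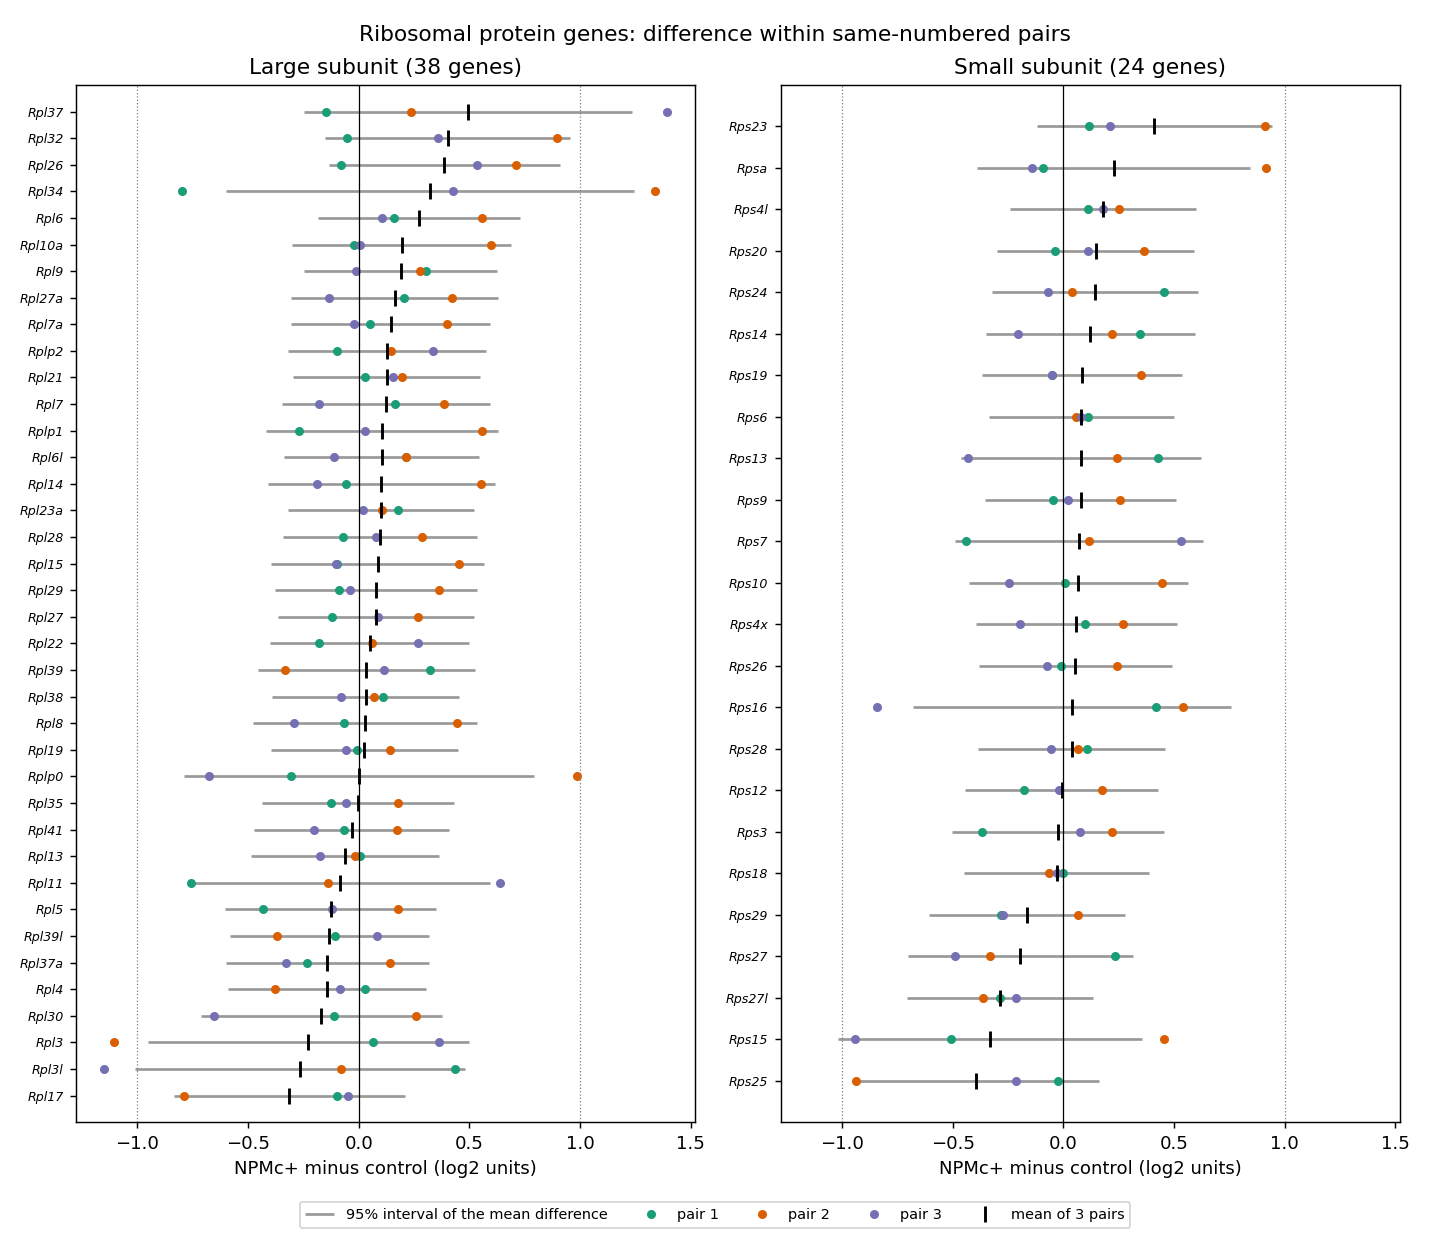
NPMc+ minus control in log2 units for the 38 large-subunit (left) and 24 small-subunit genes (right), with pairs 1, 2 and 3 as coloured points, their mean as a black tick and the limma 95% interval as a grey bar; dotted lines mark 2-fold. All 62 bars cross 0, and the points of pair 2 lie to the right of 0 for 50 of 62 genes.

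In 9 of the 62 genes (14.5%) the 3 pairs had 1 sign, 6 higher and 3 lower in NPMc+. Over all genes tested it was 30.2%, 17.4% higher and 12.8% lower. Rps23, a protein of the decoding centre, had 5.998, 6.40 and 6.05 log2 units in NPMc+ pools, against 5.88, 5.49 and 5.84 in control pools. Its difference was 0.41 ± 0.22 (SE, 3 pairs), and pair 2 alone gave 0.91. Rpl6, a large-subunit protein, had 6.42, 6.61 and 6.39 in NPMc+ pools, against 6.25, 6.06 and 6.28 in control pools. Rps6, the small-subunit protein that S6 kinase phosphorylates downstream of mTOR, had 12.33, 12.30 and 12.31 in NPMc+ pools, against 12.22, 12.24 and 12.23 in control pools. The groups of Rps6 stood apart by little, with a difference of 0.08 ± 0.17 log2 units (SE; 95% interval -0.33 to 0.50). Rpl21 differed by 0.13, Rpl23a by 0.10 and Rps4l, which RefSeq lists as a transcribed pseudogene, by 0.18.

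Rps25, Rps27l and Rpl17 were the 3 genes lower in each pair. Rps25, a small-subunit protein known for its part in internal ribosome entry, had 9.75, 9.30 and 9.66 log2 units in NPMc+ pools, against 9.78, 10.24 and 9.87 in control pools. Most of its difference of -0.39 ± 0.23 (SE) lay in pair 2, at -0.94, against -0.03 in pair 1. Rpl17, a protein near the exit of the nascent chain tunnel, had 6.48, 6.14 and 6.51 in NPMc+ pools, against 6.58, 6.93 and 6.56 in control pools, likewise with pair 2 furthest, at -0.79. Rps27l, a paralog of Rps27 that p53 is known to induce, had 8.12, 8.08 and 8.15 in NPMc+ pools, against 8.40, 8.44 and 8.37 in control pools. Its pair differences were even, at -0.28, -0.36 and -0.21, and its mean difference was -0.29 ± 0.18 (SE; 95% interval -0.71 to 0.13; limma adjusted p 0.696).

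**Figure D3:**
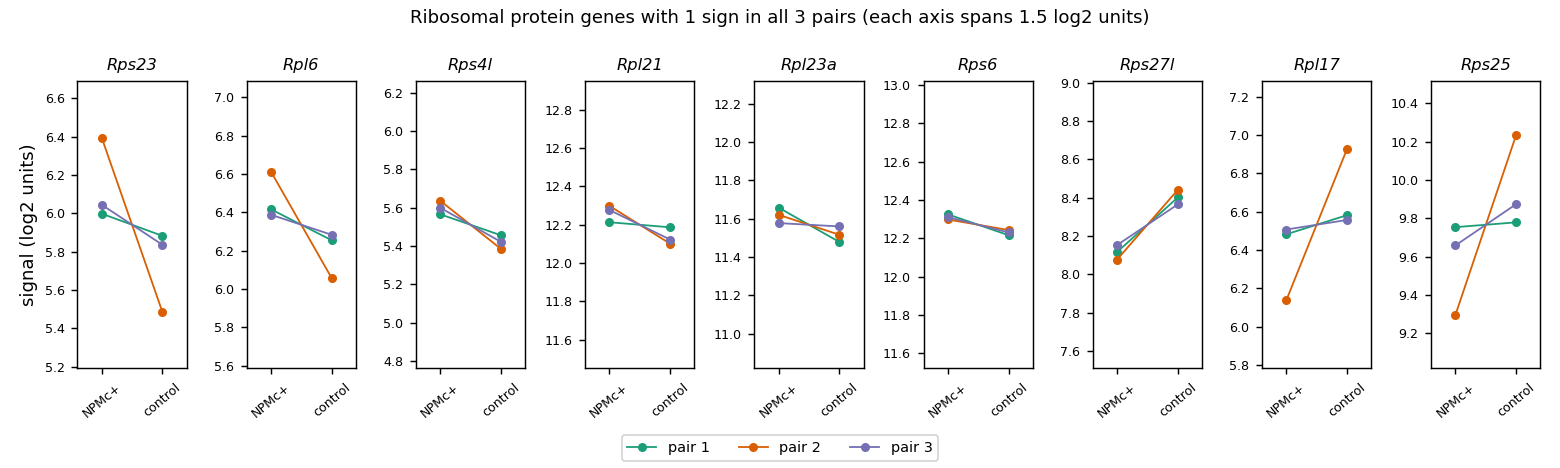
Log2 signal of the 9 ribosomal protein genes whose 3 pairs have 1 sign, NPMc+ at the left and control at the right of each panel, with a line for each same-numbered pair; every vertical axis spans 1.5 log2 units. The lines of Rps6 and Rps27l run nearly parallel, while those of Rps23, Rpl17 and Rps25 are steepest in pair 2.

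The other genes with the largest differences had pairs of both signs. Rpl37 had 4.15, 4.35 and 4.92 log2 units in NPMc+ pools, against 4.30, 4.11 and 3.53 in control pools, so that pair 3 carried its difference of 0.49. Its signal was close to the array medians of 3.90 to 3.99, as was that of Rps15 below. Rpl32 had 11.69, 12.17 and 11.90 in NPMc+ pools, against 11.74, 11.27 and 11.54 in control pools. Pair 2 was the furthest apart, at 0.90, and pair 1 the nearest to 0, at -0.05. Rpl26, which binds p53 mRNA in human cells, had pair differences of -0.08, 0.71 and 0.53. Rpl34 had -0.80, 1.34 and 0.43, the widest spread of the 62 genes. On the lower side, Rps15 had -0.51, 0.45 and -0.94, and Rpl3, a core protein near the peptidyl transferase centre, 0.06, -1.11 and 0.36. Without pair 2, Rpl3 turned to 0.21 and Rpl34 to -0.19.

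Rpl5 and Rpl11 form the 5S ribonucleoprotein with 5S RNA and, when ribosome assembly fails, bind the p53 inhibitor Mdm2. Rpl5 had 5.02, 5.33 and 5.18 log2 units in NPMc+ pools, against 5.46, 5.15 and 5.30 in control pools, and Rpl11 differed by -0.76, -0.14 and 0.64 in the pairs. Both were read from dim probe sets, and their groups overlapped. Mdm2 itself differed by -0.08 ± 0.21 (SE). In the list of 11 tested genes of this checkpoint and of p53 targets, 1 had an unadjusted p under 0.05 in limma (9.09%, against 8.97% of all genes), 1 higher and 0 lower, and the list's median was -0.04. A share this near to that of all genes is no result about the list. That gene was Cdkn1a, the p21 cell cycle inhibitor, with 9.04, 9.13 and 9.15 log2 units in NPMc+ pools, against 8.51, 8.41 and 8.40 in control pools (limma adjusted p 0.410). Of the other p53 targets, Ccng1, Zmat3, Phlda3 and Bbc3 differed by -0.12, -0.04, -0.03 and -0.03, and Sesn2 by 0.35.

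The acidic stalk of the large subunit, which recruits translation factors, is made of Rplp0, Rplp1 and Rplp2. Rplp0 had 9.19, 9.83 and 9.00045 log2 units in NPMc+ pools, against 9.49, 8.85 and 9.68 in control pools. Its mean difference was 0.00, with a 95% interval of -0.79 to 0.79, and pair 2 (0.99) and pair 3 (-0.68) had opposite signs. Rplp1 differed by 0.11 ± 0.22 and Rplp2 by 0.13 ± 0.19 (SE). Rpsa, the small-subunit protein also known as a laminin receptor, had 10.49, 10.997 and 10.47 in NPMc+ pools, against 10.59, 10.08 and 10.61 in control pools. In this probe set it was higher in pair 2 only, by 0.92. Its other probe set, at 10.02, had pair differences of -0.06, 0.20 and 0.12. Rps27a has no probe set of its own here. Rps3, at the entry of the mRNA channel, differed by -0.02 ± 0.20 (SE). Rps14 and Rps19 are the genes tied in humans to the anaemia of 5q- syndrome and of Diamond-Blackfan syndrome. Rps19 had 11.35, 11.55 and 11.35 in NPMc+ pools, against 11.40, 11.20 and 11.40 in control pools, a difference of 0.08 ± 0.19 (SE), and the dim probe set of Rps14 gave 0.12 ± 0.20.

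Some ribosomal proteins have paralogs that take their place in particular tissues. Rpl3l, known from skeletal and heart muscle, had 3.95, 3.69 and 3.16 log2 units in NPMc+ pools, against 3.52, 3.77 and 4.31 in control pools. Rpl10l and Rpl39l are known from male germ cells. Rpl10l had 2.62, 2.46 and 2.26 in NPMc+ pools, against 2.42, 2.57 and 2.77 in control pools, and Rpl39l differed by -0.13 ± 0.19 (SE). The groups of all 3 overlapped. Rpl22, needed in mice for the growth of alpha-beta T cells, differed by 0.05 ± 0.19 (SE). Of 4 tested relatives left out by the symbol rule, 0 had an unadjusted p under 0.05 in limma. Fau, whose product is cut to give a small-subunit protein, differed by 0.10, Rps3a1 by 0.03, Rpl22l1 by -0.08 and Rpl7l1 by -0.11. Rps4x and Rpl39 are the X-linked genes among the 64. The pools of a pair differed in Xist, which silences an X chromosome in female cells, by -5.44, -5.39 and 0.48, while the Y-linked Uty differed by 4.68, 0.93 and 0.35 and Eif2s3y by 5.49, 0.36 and -0.79. In the same pairs Rps4x differed by 0.10, 0.27 and -0.20, and Rpl39 by 0.32, -0.33 and 0.12. Whether the sex of the mice has a part in these values was not tested.

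The median over the mean differences was 0.08 log2 units for the 38 large-subunit genes and 0.06 for the 24 small-subunit genes, against 0.03 for all genes tested. The large-subunit median minus the small-subunit median was 0.02 log2 units. In pairs 1, 2 and 3 it was -0.06, -0.01 and 0.04, so the sign changed between pairs. No p is given, since genes of an array are not replicates. Of the large-subunit genes 26 of 38 had a positive mean difference, and of the small-subunit genes 16 of 24. The median of all genes depended on the filter on dim signals. Above the 50th percentile of mean signal it was 0.09 log2 units, against 0.08 for the large and 0.07 for the small subunit. The subunit medians thus did not exceed that of these brighter genes.

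What varied was the pair. In pair 2, 50 of the 62 genes (80.6%) were higher in NPMc+, where 54.5% of all genes tested were. In pair 1 it was 26 of 62 (41.9%), against 50.4% of all genes, and in pair 3 24 of 62 (38.7%), against 53% of all genes. The large subunit had medians of -0.07, 0.23 and -0.03 log2 units in pairs 1, 2 and 3, and the small subunit -0.00, 0.23 and -0.07, while all genes had 0.00, 0.05 and 0.03. The 38 bright genes showed this as the whole list did, with medians of -0.02, 0.23 and -0.06. The 24 dim genes had -0.09, 0.23 and 0.09, on the other side of 0 in pair 3. In that pair 13 of the 24 dim genes (54.2%) were higher in NPMc+, against 11 of the 38 bright ones (28.9%). Over the mean differences 42 of the 62 genes were positive, but without pair 2 the count was 24. The positive medians of the subunits therefore rest on a single pair.

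**Figure D4:**
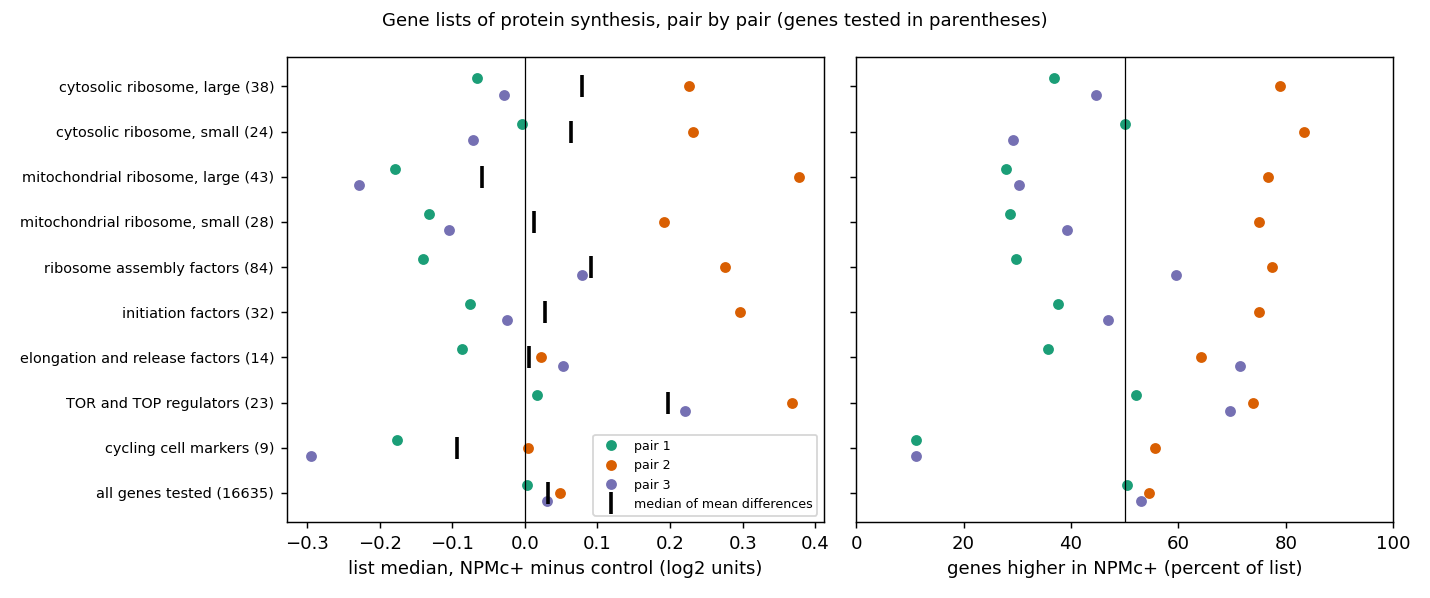
Median difference NPMc+ minus control in log2 units (left) and percent of genes higher in NPMc+ (right) for 9 gene lists and all genes tested, with a coloured point for each pair and, at the left, a black tick for the median of the mean differences. Pair 2 lies furthest right for all lists but the elongation and release factors, with both cytosolic subunits at 0.23, while all genes tested lie between 0.00 and 0.05.

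Several other lists of the protein synthesis machinery also had their highest median in pair 2, but not all did. The elongation and release factor list (14 genes) had medians of -0.09, 0.02 and 0.05 in pairs 1, 2 and 3, highest in pair 3. It also holds genes that are not such factors, Eef2k among them. The 4 relatives outside the symbol rule had 0.11, -0.25 and -0.08, lowest in pair 2. The 84 tested factors of ribosome assembly had medians of -0.14, 0.28 and 0.08 log2 units in pairs 1, 2 and 3, and the 32 initiation factors -0.08, 0.30 and -0.02. At an unadjusted p under 0.05 in limma, the assembly list had 1 gene higher and 1 lower, 2.38% of the list against 8.97% of all genes. Its genes with 1 sign in 3 pairs were 17 of 84 (20.2%), against 30.2% of all genes. Rrp12, a factor for export of both subunits, had 6.54, 6.42 and 6.51 in NPMc+ pools, against 5.93, 6.04 and 5.95 in control pools. Dcaf13, a factor of small-subunit processing, had 8.41, 8.32 and 8.41 in NPMc+ pools, against 8.85, 8.94 and 8.85 in control pools. The groups of both genes did not overlap, with limma adjusted p-values of 0.487 and 0.508. Rrp1b, a nucleolar protein, differed by 0.40 ± 0.19 (SE). Npm1 differed by -0.19 ± 0.18 (SE), which checks no label, since the sources used here do not say whether its probe set reads the mutant; the nucleolar protein gene Ncl differed by 0.01 ± 0.17. The initiation factors of smallest p were Eif3j1, Eif4g3 and Eif1a, with differences of 0.63, 0.38 and 0.35. In the elongation and release factor list Eef2k differed by 0.62, almost all of it in pair 2 (1.87). Gspt1 differed by -0.32 and Abce1 by -0.24. None of the 32 initiation factors and none of the 14 elongation and release factors had an unadjusted p under 0.05 in limma, against 8.97% of all genes. Abundant messages of the last list that also carry TOP tracts in mammals, Eef1a1, Eef2 and Tpt1, differed by -0.01, 0.18 and -0.04.

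Among 23 tested genes known to act on mTOR signalling or on TOP messages, limma gave 3 an unadjusted p under 0.05, 3 higher and 0 lower. This was 13.04%, against 8.97% of all genes, and in so short a list it is no result about the list. The list median was 0.20 log2 units, against 0.03 for all genes tested and 0.09 for genes above the 50th percentile of mean signal. The list was brighter than all genes tested, with median signals of 7.52 and 5.11. Tia1, an RNA-binding protein that represses TOP messages, had 6.87, 6.93 and 6.98 in NPMc+ pools, against 6.41, 6.35 and 6.29 in control pools. Deptor, an inhibitor bound to mTOR, had 6.65, 6.38 and 6.26 in NPMc+ pools, against 5.51, 5.78 and 5.90 in control pools. Rptor, the raptor subunit of mTOR complex 1, had 5.80, 6.06 and 6.22 in NPMc+ pools, against 5.65, 5.38 and 5.23 in control pools. The groups did not overlap for any of the 3, which were named for the smallest p of the list. Their limma adjusted p-values were 0.457, 0.458 and 0.512. In 12 of the 23 genes (52.2%) the 3 pairs had 1 sign, against 30.2% of all genes tested. Mtor differed by 0.38 ± 0.19, Larp1, which binds TOP tracts, by 0.20 ± 0.19, and Myc by 0.39 ± 0.19 (SE).

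Markers of other cells differed between the same pools. At an unadjusted p under 0.05 in limma, 9 of 11 tested B cell markers, 7 of 9 erythroid markers and 8 of 16 neutrophil and monocyte markers were lower in NPMc+, and 0 were higher. Of all genes tested 3.02% were lower and 5.95% higher at that threshold. Of 12 T and NK cell markers 5 were lower and 1 higher. Of 13 LT-HSC markers 9 were higher and 0 lower, and of 8 megakaryocyte markers 6 were higher and 1 lower. No adjusted p was under 0.05. The mean of the B cell markers was 4.43 to 4.58 log2 units in NPMc+ pools, against 5.74 to 5.89 in control pools. The mean of the erythroid markers was 5.55 to 5.99 log2 units in NPMc+ pools, against 6.31 to 6.75 in control pools. These pools were sorted as stem cells, yet the mean of the neutrophil and monocyte markers was 8.93 to 9.44 log2 units in NPMc+ pools, against 9.54 to 10.06 in control pools. Pair 3 showed almost none of this, its median over the list being -0.06, where pair 1 had -1.10 and pair 2 had -1.03. Of 9 cycling cell markers 0 passed, and Mki67 had pair differences of -0.20, -0.25 and -0.33. The mean of the LT-HSC markers was 6.91 to 7.04 log2 units in NPMc+ pools, against 6.28 to 6.41 in control pools, and among them Procr had the difference nearest to 0, at 0.08 ± 0.19 (SE). The list holds Cd34 and Flt3, which in mice mark later progenitors more than LT-HSC, and they differed by 0.86 and 0.92. The part of cell composition or cycling in the ribosomal protein values was not tested.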

How the data were processed

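The authors deposited log2 values of 41345 probe sets on 6 arrays; the submitters' processing notes name RMA, with no version. No source used here names the step that made the pair means equal (within 0.001 in 100% of probe sets, in at most 0.343% under another pairing). Because of it, the NPMc+ and control arrays of a pair deviate from their groups with a correlation of -1, and the pair entered the fit as a block. Groups and pair numbers come from the sample titles. Of the probe sets 23521 had 1 symbol, 1814 several and 16010 none; the brightest single-symbol probe set stood for each of 22180 genes. Genes below the 25th percentile of mean signal were left out. The remaining 16635 were fitted with limma 3.58.1 (lmFit, eBayes, two-sided; R 4.3.3) with group and pair, leaving 2 residual and 4.537 prior degrees of freedom, and adjusted by Benjamini-Hochberg over all genes at 0.05. The procedure was tested on simulated data. Lists were described by counts and medians only. The members, lists and rules were chosen with earlier results of these data known. Text names the 6 largest and 6 smallest differences, the 4 highest and 4 lowest signals, genes of fixed roles, and the 3 genes of smallest p of each other list, except that marker lists are given by counts and levels. Rpl21 and Rpl23a, named for 1 sign in 3 pairs, and further list members were chosen after their values were seen. The number of arrays limits the precision. Symbols of all 64 genes were unchanged in RefSeq (GRCm38.p6). Figures used matplotlib 3.10.9.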

Additional observations from a re-analysis of the deposited data

How the results depend on the processing

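With the pair as a block the tests rest on 2 residual degrees of freedom. Without the replicate block, limma called 828 genes at an adjusted p under 0.05 in place of 0, none of them a ribosomal protein gene, and 5 ribosomal protein genes had an unadjusted p under 0.05 in place of 0 (Rpl26, Rpl6, Rps23, Rps27l and Rps4l; 24.9% of all genes passed there); in the other protein synthesis lists 41 genes did in place of 7. The unblocked fit treats the 6 arrays as independent, which the equal pair means do not allow. With the mean of a gene's probe sets 1 ribosomal protein gene, Rps28, had an unadjusted p under 0.05, and 0 did after quantile normalization, without the filter, with the filter at the 50th percentile or with limma-trend. Leaving out each pair in turn gave 0 to 1 ribosomal protein genes at an unadjusted p under 0.05 (Rpl34 without pair 1, Rps15 without pair 2), 0 to 24 genes at an adjusted p under 0.05 over all genes, 3 to 11 genes in the other lists, and a large minus small median of -0.0013 to 0.085. The median of large-subunit genes was -0.02 to 0.14 and of small-subunit genes -0.05 to 0.11 without single pairs. Over the members with a signal of 8 or more, a choice made after seeing the data, the medians were 0.08 and 0.06. Some mean differences changed sign: after quantile normalization Rpl22 (-0.015), Rplp0 (-0.038), Rps12 (0.042) and Rps18 (0.027); with the mean of probe sets Rpl3 (0.20, against -0.23 for its brightest probe set), Rps12 (0.0092) and Rps18 (0.060). Without single pairs, sign changes gave ranges of -0.0017 to 0.97 for Eef2k, -0.12 to 0.21 for Fau, -0.45 to 0.25 for Rpl11, -0.059 to 0.16 for Rpl22, -0.22 to 0.066 for Rpl22l1, -0.52 to 0.21 for Rpl3, -0.19 to 0.88 for Rpl34, -0.61 to 0.18 for Rpl3l, -0.28 to 0.027 for Rpl5, -0.28 to 0.14 for Rpl7l1, -0.49 to 0.34 for Rplp0, -0.12 to 0.29 for Rplp1, -0.099 to 0.077 for Rps12, -0.051 to 0.15 for Rps19, -0.15 to 0.15 for Rps3 and -0.12 to 0.41 for Rpsa.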

Other observations

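The mitochondrial ribosome, which translates the few proteins encoded in mitochondrial DNA, had medians that changed sign between pairs. The 43 tested large-subunit genes had medians of -0.18, 0.38 and -0.23 log2 units in pairs 1, 2 and 3, and the 28 small-subunit genes -0.13, 0.19 and -0.10. In limma 0 of the 43 and 1 of the 28 had an unadjusted p under 0.05, against 8.97% of all genes, and 0 an adjusted p under 0.05. That gene was Mrps25, with 7.45, 8.22 and 8.07 log2 units in NPMc+ pools, against 7.56, 6.79 and 6.94 in control pools. Pair 1 was on the other side of 0, at -0.11, and the limma adjusted p was 0.526. Mrpl45 differed by 0.72 ± 0.30 (SE) with pair 2 at 1.597. Mrpl54 had pair differences of -0.29, -0.26 and -0.48, and Mrpl20 of -0.50, 0.02 and -0.67. In the small subunit Mrps30 had -0.07, -0.52 and -0.72, and Mrps10 had 0.34, 0.28 and 0.44.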
